A study of Homo sapiens with 6 samples.

Results

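The 10 genes described here encode contractile proteins of smooth muscle and 2 secreted proteins used as readouts of the co-activator YAP. They are ACTA2, TAGLN, CNN1, MYL9, TPM1, TPM2, CALD1, ACTG2, CTGF and CYR61. They were taken by gene symbol from the 25370 rows of a raw count table, and each symbol was found. The set was chosen by the LMO1 against vector counts of ACTA2 and TAGLN, which were lower with LMO1, so the LMO1 values of the members are given as a description, with no p-value, and nothing is supported with them. The table covers 6 libraries from the human lines BE2C and Kelly, both derived from neuroblastoma with MYCN amplification. BE2C cells overexpressing LMO1, a LIM-only transcriptional co-regulator, gave 2 libraries, and BE2C cells with the vector control gave 2. A single library came from unmodified (parental) BE2C cells and another from Kelly. The promoter of the vector and whether the modified lines were clones or pools are not given in the sources used here.

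Smooth muscle cells contract when myosin, switched on by its regulatory light chain, slides along actin filaments that are coated with tropomyosin, caldesmon, calponin and transgelin. Non-muscle cells use the same machinery built from other paralogues for adhesion and migration. Many contractile genes are switched on by the serum response factor SRF, which binds a DNA element called the CArG box together with myocardin or with the actin-sensing cofactors MKL1 and MKL2. YAP and its relative TAZ (gene WWTR1) act through the TEAD factors, which bind GGAATG-like elements, and CTGF and CYR61 are their best known targets. In neuroblastoma, contractile genes are better known from mesenchymal-like tumour cells and from stromal cells than from adrenergic ones.

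Promoter sequences were read to show which of these elements lie in front of the members. RefSeq windows (build GRCh38.p14, a later build than the hg19 named for the counts) were held in the table used for 7 members, in 12 windows of 250 bases before a transcript start. TAGLN, MYL9 and CYR61 had no entry. The CArG box was searched by its consensus, which reads the same on both strands, and also with 1 of its 6 inner A or T letters replaced by G or C. GGAATG was searched on both strands, and no match of 1 kind overlapped a match of another in these windows. ACTG2 was the only member with a full CArG match, and it held 2, starting 110 and 73 bases before the transcript start. The downstream start of ACTA2 held 2 matches with 1 letter off, CCCTATATGG at 121 and CCTTGTTTGG at 71 bases before the start, and 1 GGAATG at 183. CTGF held 3 GGAATG matches, at 169, 104 and 95 bases before the start. CALD1, which has 4 windows, held a GGAATG match in 2 of them and a CArG match with 1 letter off in another. No match was found in the windows of CNN1, TPM1 and TPM2 or at the upstream start of ACTA2. Among all 35116 windows of the same length, 1.16% held a full CArG match, 5.96% a match with 1 letter off and 11.9% a GGAATG match. The stretches below show the matches in capitals, 5′ to 3′, without bases that GENCODE counts as exon. They are ACTA2 at chr10:88952774-88953023 on the minus strand, ACTG2 at chr2:73892758-73892943 on the plus strand and CTGF (CCN2 in RefSeq) at chr6:131951374-131951622 on the minus strand. The second ACTG2 match runs 1 base past the printed end.
ACTA2: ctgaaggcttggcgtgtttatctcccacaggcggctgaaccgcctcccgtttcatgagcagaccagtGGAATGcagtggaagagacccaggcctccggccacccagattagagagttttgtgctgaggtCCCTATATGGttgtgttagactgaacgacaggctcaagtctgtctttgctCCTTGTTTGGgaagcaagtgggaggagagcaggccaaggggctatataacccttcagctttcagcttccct
ACTG2: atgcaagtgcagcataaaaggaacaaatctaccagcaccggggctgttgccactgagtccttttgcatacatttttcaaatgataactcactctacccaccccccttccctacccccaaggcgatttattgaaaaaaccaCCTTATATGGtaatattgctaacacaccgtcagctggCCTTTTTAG
CTGF: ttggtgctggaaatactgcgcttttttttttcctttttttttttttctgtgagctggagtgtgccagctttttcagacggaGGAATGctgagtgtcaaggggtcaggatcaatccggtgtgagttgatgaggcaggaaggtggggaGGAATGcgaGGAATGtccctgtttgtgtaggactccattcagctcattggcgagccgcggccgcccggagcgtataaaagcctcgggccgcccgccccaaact

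Library depth ran from 18737591 to 59512958 counts, and where no read was seen the upper limit was taken as 3 counts, or 0.16 CPM at the lowest depth and 0.0504 CPM at the highest. Levels in CPM (library-size-scaled counts, with TMM factors over the 6 libraries) compare a gene between libraries, and levels in TPM (also divided by transcript length) compare genes within a library. LMO1 itself was at 6.55 and 5.85 CPM in the LMO1 libraries, 1.05 and 0.926 CPM with vector, 1.93 CPM in parental cells and 94.1 CPM in Kelly. The labelled cell type was checked on 9 neuroblastoma genes, all of which were tested (4 lower and 3 higher with LMO1), and their summed level was 2378 to 4642 CPM in the 6 libraries. Separate cultures are not named for the paired libraries of a group, so each p-value speaks of the spread within these pairs, which could be technical.

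With LMO1, the smooth muscle genes ACTA2, TAGLN and CNN1 were well below their vector level in these libraries, TPM1 was lower by less, and CALD1 and TPM2 were close to it. The YAP targets CTGF and CYR61 and the enteric actin ACTG2 were at the edge of detection in every BE2C library, and the light chain MYL9 had no counts there. Of the 10 members, 6 had enough reads to enter the edgeR quasi-likelihood fit, and 4 of these were called lower (adjusted p below 0.05) and 0 higher. Across all 15480 genes tested, 15.1% were called lower and 15.9% higher, and 31.0% either way. The median log2 fold change of the 6 was -1.16, against 0.00 for all genes tested. The count and the median come from the contrast that chose the set and were in part fixed by that choice, so nothing is read from them. For CNN1, both vector libraries but not both LMO1 libraries reached the read filter. Its entry into the fit thus favoured a lower call, which is no independent sign.

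**Figure D1:**
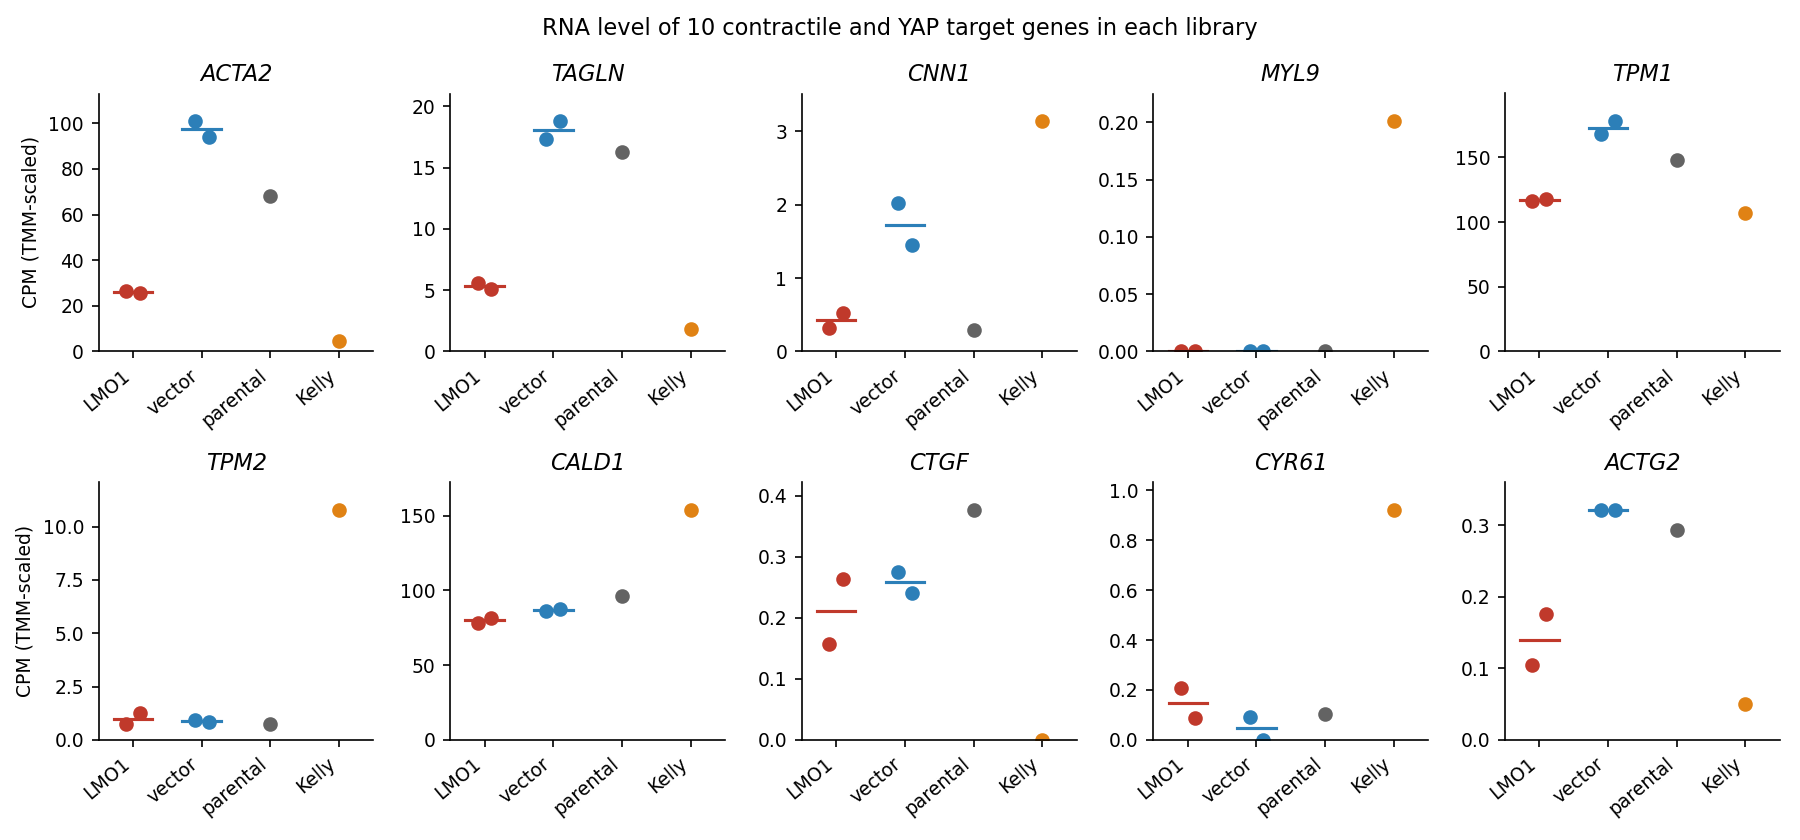
Level of each member in CPM (TMM-scaled, linear axes that start at 0 and differ between panels) in every library. Points are libraries, and lines are the means of the 2 LMO1 and the 2 vector libraries. ACTA2 is at 26.5 and 25.8 CPM with LMO1 and at 101 and 94.1 CPM with vector, and MYL9, CTGF, CYR61 and ACTG2 stay under 1 CPM in all 6 libraries.

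ACTA2 encodes the smooth muscle alpha-actin of arteries, which myofibroblasts also make. It was at 26.5 and 25.8 CPM in the LMO1 libraries, 101 and 94.1 CPM with vector, 68.2 CPM in parental cells and 4.62 CPM in Kelly. The LMO1 libraries lay below every other BE2C library, and Kelly lay below all of them. The mean was 26.2 ± 0.502 CPM (SD, n = 2) with LMO1 and 97.5 ± 4.81 CPM (n = 2) with vector, a log2 fold change of -1.89 (SE 0.066). ACTA2 had no 50-base word in common with another gene in the GENCODE transcripts, so exact copies elsewhere do not supply its reads at that length.

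ACTG2, the enteric smooth muscle actin whose promoter holds both full CArG matches, had 2 and 4 counts with LMO1, 7 and 8 with vector, 14 in the parental library and 3 in Kelly. At most 0.322 CPM was reached, and the gene was not tested. The ratio of vector to LMO1 counts, scaled to library size, was 2.24, with an exact 95% interval of 0.821 to 7.05 that covers counting error only. A difference was therefore not detected at this depth.

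TAGLN encodes transgelin, an actin-bundling protein of smooth muscle. It was at 5.6 and 5.06 CPM with LMO1, 17.3 and 18.8 CPM with vector, 16.3 CPM in the parental library and 1.81 CPM in Kelly. As for ACTA2, the parental library lay under the vector pair, the LMO1 pair lay below all of these, and Kelly was lowest. The mean was 5.33 ± 0.383 CPM with LMO1 and 18.1 ± 1.07 CPM with vector (n = 2 each), a log2 fold change of -1.76 (SE 0.141).

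CNN1 encodes calponin, which binds actin and restrains myosin in smooth muscle. It had 6 and 12 counts with LMO1, 44 and 36 with vector, 14 in the parental library and 187 in Kelly, or 0.314, 0.528, 2.02, 1.45, 0.293 and 3.14 CPM. The vector pair was high among BE2C libraries, and the parental library was as low as the LMO1 pair. The log2 fold change was -1.99 (SE 0.471). The parental to LMO1 ratio of counts was 0.681 (exact 95% interval 0.313 to 1.45), while vector exceeded parental by 5.85-fold (3.29 to 11.2). These intervals cover counting error only, and replicates here varied beyond it, so the parental values, from 1 library, are a description.

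CALD1 encodes caldesmon, which blocks myosin on actin until it is released by calcium signals. It was at 78.4 and 81.4 CPM with LMO1, 86.1 and 87.5 CPM with vector, 96.4 CPM in the parental library and 154 CPM in Kelly. The LMO1 and vector pairs did not overlap, but they lay close together. The log2 fold change was -0.11 (SE 0.0524), and the gene was not called. Among genes tested, 32.4% had both LMO1 libraries below both vector libraries, and 31.3% had both above, so such an order alone is common.

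TPM1 encodes a tropomyosin made in both muscle and non-muscle forms, which the counts per gene do not separate. It was at 116 and 118 CPM with LMO1, 168 and 178 CPM with vector, 148 CPM in the parental library and 107 CPM in Kelly. The parental library lay between the pairs, and Kelly lay under all 5 BE2C libraries. The mean was 117 ± 1.26 CPM with LMO1 and 173 ± 7.21 CPM with vector, a log2 fold change of -0.56 (SE 0.042).

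TPM2, the beta-tropomyosin of muscle, was at 0.733 and 1.28 CPM with LMO1, 0.916 and 0.845 CPM with vector, 0.733 CPM in the parental library and 10.8 CPM in Kelly. The LMO1 and vector pairs overlapped (log2 fold change 0.22, SE 0.450). MYL9, the regulatory light chain of smooth muscle myosin, had 0 counts in all 5 BE2C libraries and 12 in Kelly, where its level was 0.201 CPM (95% Poisson interval 0.104 to 0.352).

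CTGF and CYR61 encode secreted matricellular proteins that bind integrins and growth factors. CTGF had 3 and 6 counts with LMO1, 6 and 6 with vector, 18 in the parental library and 0 in Kelly. Its LMO1 to vector ratio of counts was 0.837 (exact 95% interval 0.311 to 2.16). CYR61 had 4 and 2 counts with LMO1, 2 and 0 with vector, 5 in the parental library and 55 in Kelly. Its LMO1 to vector ratio was 3.35 (0.599 to 33.9). Both pairs of libraries overlapped for both genes, and neither gene was tested. No difference in either gene between LMO1 and vector was detected at this depth, and the intervals are wide.

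Levels per length showed how small a part of their families' transcripts ACTA2, TAGLN, CNN1 and TPM1 were in BE2C, and protein was not measured. ACTA2 made up 3.39 and 3.19% of all actin transcripts with vector, 2.87% in parental cells, 1.07 and 1.06% in the LMO1 libraries and 0.512% in Kelly. The cytoplasmic actins ACTB and ACTG1 made up nearly all of the rest, at 65.7 and 30.9% in vector replicate 1. TAGLN was at 2.52 and 2.79% of the transgelin transcripts with vector and at 0.807 and 0.722% with LMO1, beside TAGLN2, the broadly expressed paralogue, at 94.0 to 94.9% in these 4 libraries. CNN1 was at 1.51 and 1.11% of calponin transcripts with vector and at 0.254 and 0.405% with LMO1, and CNN3, the non-muscle form, held 94.7 to 97.7%. TPM1 was at 8.24 and 8.69% of tropomyosin transcripts with vector and at 5.84 and 5.79% with LMO1, below TPM3 and TPM4. The lengths count all annotated exons of a gene, 8347 bases for TPM1 and 3413 for TPM4, which lowers the share of TPM1. The regulatory light chains came from MYL12A and MYL12B, at 71.5 to 85.4 TPM in the BE2C libraries, where MYL9 had no read.

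**Figure D2:**
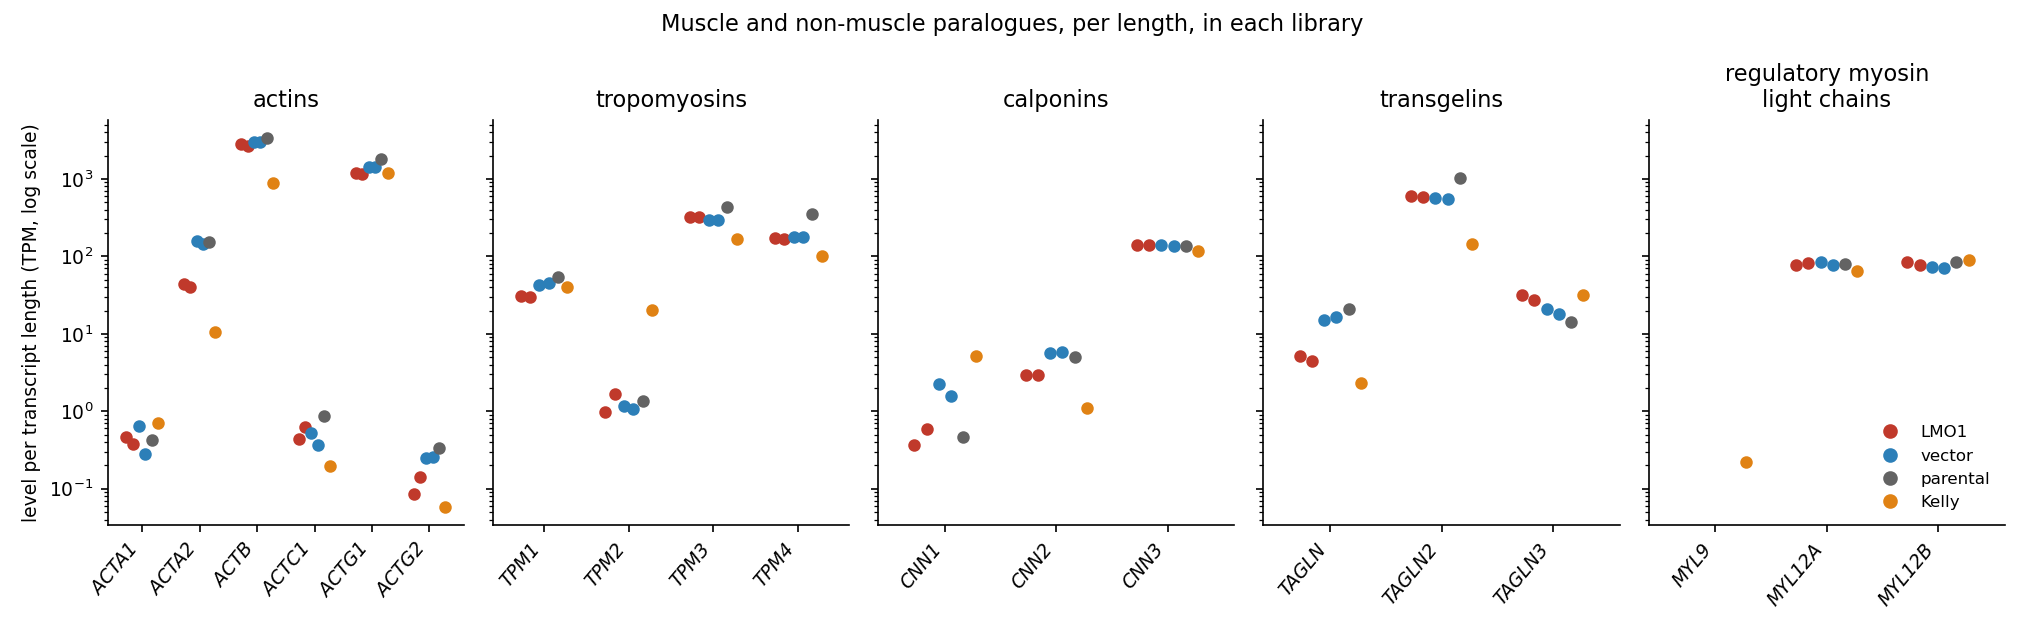
Levels per transcript length (TPM, log axis) of actins, tropomyosins, calponins, transgelins and regulatory myosin light chains, with 1 point per library. Libraries with no read are left out, which affects MYL9 in the 5 BE2C libraries. Within each library ACTA2 lies under ACTB, at 157 against 3041 TPM in vector replicate 1 and at 43.4 against 2824 TPM in LMO1 replicate 1.

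The neighbouring genes of the pathway were read from 7 lists of 130 genes that are not members. Of 119 tested, 32 were called lower, 21 higher and 66 not called by edgeR (Benjamini-Hochberg adjusted p below 0.05), with a median log2 fold change of -0.01 against 0.00 for all genes. Over all genes tested, 15.1% were called lower and 15.9% higher, to be set beside the counts of each list. In turn, 6 of these lists are described.

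Other smooth muscle contractile genes were called in both directions. Of 15 tested, 2 were lower, 2 higher and 11 not called, and the median log2 fold change was 0.04. Without LMO1 replicate 2 the lower count was 1, and without LMO1 replicate 1 or either vector replicate the higher count was 1. Across all genes tested, 15.1% were called lower and 15.9% higher, so these counts do not set the list apart. Of the genes not called, LMOD1, PLN and ACTC1 were at 1.1 CPM or less in the modified libraries. With SE of 0.469 to 0.547, only large changes in them could be called. DES, the intermediate filament of muscle, fell from 3.13 ± 0.0165 to 1.53 ± 0.424 CPM (log2 -1.03, SE 0.307, edgeR adjusted p = 0.00763). That call was lost with the DESeq2 Wald test and without LMO1 replicate 2, where the adjusted p was at most 0.15. SYNM, a filament protein that links to desmin, fell from 174 ± 7.38 to 150 ± 4.43 CPM (log2 -0.21, SE 0.0405, edgeR adjusted p = 4.24e-05). MYLK, the kinase that activates the regulatory light chain, rose from 14.0 ± 0.232 to 18.8 ± 0.841 CPM (log2 0.43, SE 0.112, edgeR adjusted p = 0.00217). SYNPO2, an actin-bundling protein, was at 315 ± 8.47 against 296 ± 0.236 CPM, a log2 value of 0.10 whose call was lost under 4 of 12 alternatives (edgeR adjusted p = 0.0171, up to 0.132). MYH11, the defining myosin heavy chain of smooth muscle, was at 2.51 to 3.38 CPM in the 4 modified libraries and was not called (edgeR adjusted p = 0.435).

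Among non-muscle actomyosin genes, 11 of 28 tested were lower, 4 higher and 13 not called, with a median log2 fold change of -0.05. The shares over all genes tested were 15.1% lower and 15.9% higher. Abundant genes such as ACTB had a small SE, so small changes in them could be called. The higher count was 2 without either vector replicate and 6 with total-count scaling. VCL, vinculin of focal adhesions, fell from 171 ± 2.08 to 114 ± 3.64 CPM (log2 -0.59, SE 0.042, edgeR adjusted p = 5.67e-16). The cytoplasmic actin ACTG1 fell by 0.32 (SE 0.0226, edgeR adjusted p = 2.81e-16), ACTB by 0.18 (SE 0.021) and the actin crosslinker FLNA by 0.23 (SE 0.0257) on the log2 scale. CNN2, chosen after its values were seen as the largest drop of this list, was at 3.03 ± 0.0682 against 6.10 ± 0.138 CPM (log2 -1, SE 0.212, edgeR adjusted p = 0.0002). The paralogues TAGLN2 and CNN3 were not called, with log2 values of 0.05 and 0.00 in size.

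SRF and 8 cofactor genes were read next, of which 8 were tested, 2 lower (1 without vector replicate 2), 1 higher and 5 not called. SRF was at 33.8 and 33.4 CPM with LMO1, 39.8 and 43.4 CPM with vector, 54.7 CPM in the parental library and 30.2 CPM in Kelly. It fell by 0.30 on the log2 scale (SE 0.0766, edgeR adjusted p = 0.00175), a call lost without vector replicate 2 (adjusted p = 0.0628). MYOCD, myocardin, had 0 counts in all 6 libraries. MKL1 was at 22.6 ± 2.33 against 23.2 ± 0.273 CPM and was not called. MKL2 averaged 27.6 ± 0.574 CPM with LMO1 and 32 ± 1.22 CPM with vector (edgeR adjusted p = 0.0551) and passed when low-count rows were kept or when the parental and Kelly libraries joined the model (lowest adjusted p = 0.0461). FHL2, a LIM protein that is both a partner and a target of SRF, fell from 27.8 ± 1.33 to 18.4 ± 1.33 CPM (log2 -0.59, SE 0.0965, edgeR adjusted p = 3.29e-06). SCAI, which restrains MKL1, rose by 0.43 (SE 0.0933, edgeR adjusted p = 0.000325).

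**Figure D3:**
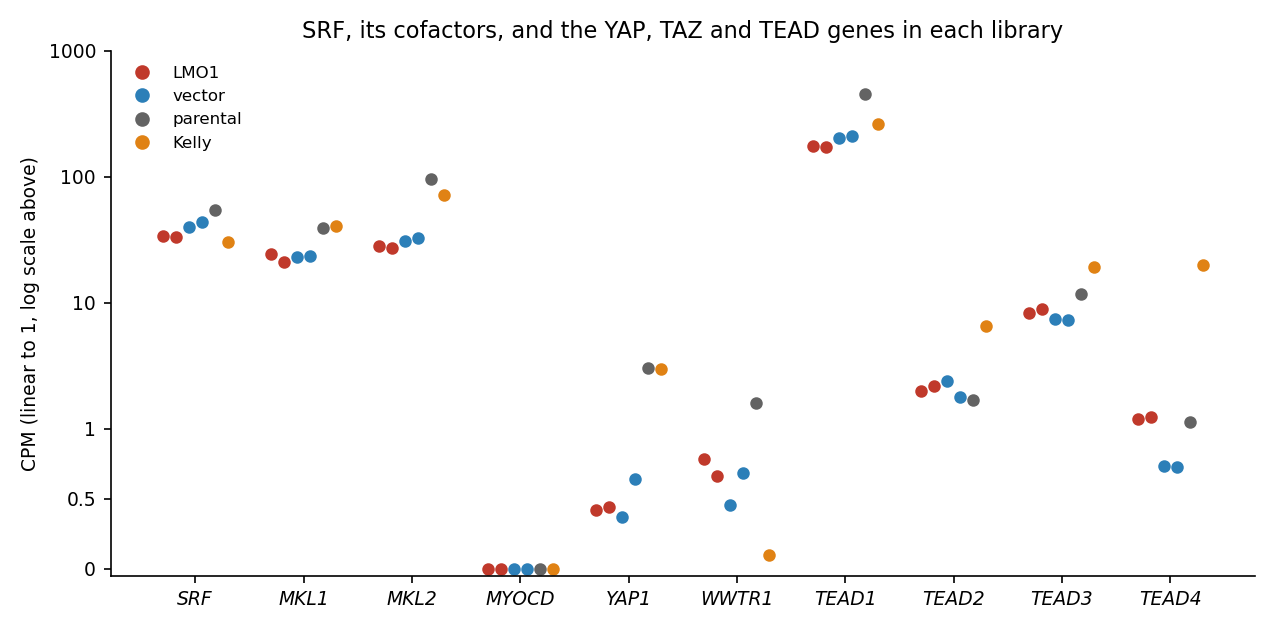
Level of SRF, its cofactors and the YAP, TAZ (WWTR1) and TEAD genes in CPM, with 1 point per library, on an axis that is linear up to 1 and logarithmic above. MYOCD is at 0 in all 6 libraries, YAP1 is at 0.367 to 0.644 CPM in the 4 modified libraries and 3.01 CPM in the parental one, and TEAD1 is at 171 CPM or more throughout.

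YAP1 itself was barely present. It was at 0.419 and 0.440 CPM with LMO1, 0.367 and 0.644 CPM with vector, 3.01 CPM in the parental library and 3 CPM in Kelly, and it was not tested. WWTR1 was at 0.785 and 0.660 CPM with LMO1, 0.458 and 0.684 CPM with vector, 1.61 CPM in the parental library and 0.101 CPM in Kelly, and was not called. TEAD1, their DNA-binding partner, was abundant and fell from 207 ± 4.68 to 173 ± 3.35 CPM (log2 -0.25, SE 0.0375, edgeR adjusted p = 7.4e-07), while TEAD2, TEAD3 and TEAD4 were not called. In the Hippo list as a whole, 3 of 18 tested were lower, 4 higher and 11 not called, with 1 lower without LMO1 replicate 2 and 2 higher without vector replicate 2. AMOTL1, an angiomotin that holds YAP in the cytoplasm, rose by 0.32 (SE 0.0324, edgeR adjusted p = 1.86e-11) and FRMD6, an upstream regulator, by 0.33 (SE 0.0622). TAOK1 rose by 0.16, a call lost under 3 of 12 alternatives (edgeR adjusted p = 0.005, up to 0.142).

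The other YAP and TAZ targets, of which several are also controlled by many other factors, went both ways, with 6 of 18 tested lower, 3 higher and 9 not called. IGFBP3, a secreted binding protein of insulin-like growth factors, fell from 66.4 ± 2.15 to 21.2 ± 2 CPM (log2 -1.63, SE 0.0769, edgeR adjusted p = 1.22e-22). MYOF, a membrane repair protein, fell from 3.99 ± 0.331 to 0.797 ± 0.131 CPM (log2 -2.32, SE 0.328, edgeR adjusted p = 1.44e-07). AXL, a receptor tyrosine kinase, fell from 20.2 ± 1.82 to 11.8 ± 0.0415 CPM (log2 -0.77, SE 0.116, edgeR adjusted p = 6.06e-07). NT5E, which makes adenosine at the cell surface, rose from 26.4 ± 1.76 to 56.5 ± 7.08 CPM (log2 1.11, SE 0.0803, edgeR adjusted p = 8.44e-16). ANKRD1, picked out after its values were seen because it is a classical target, had 8 and 0 counts with LMO1 and 14 and 23 with vector. It entered the fit only through its vector libraries, so its place among the 6 lower genes is no independent sign. LATS2, another classical target, was under 1 CPM in all 6 libraries and was not tested. Without LMO1 replicate 2, 3 genes of this list were lower.

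**Figure D4:**
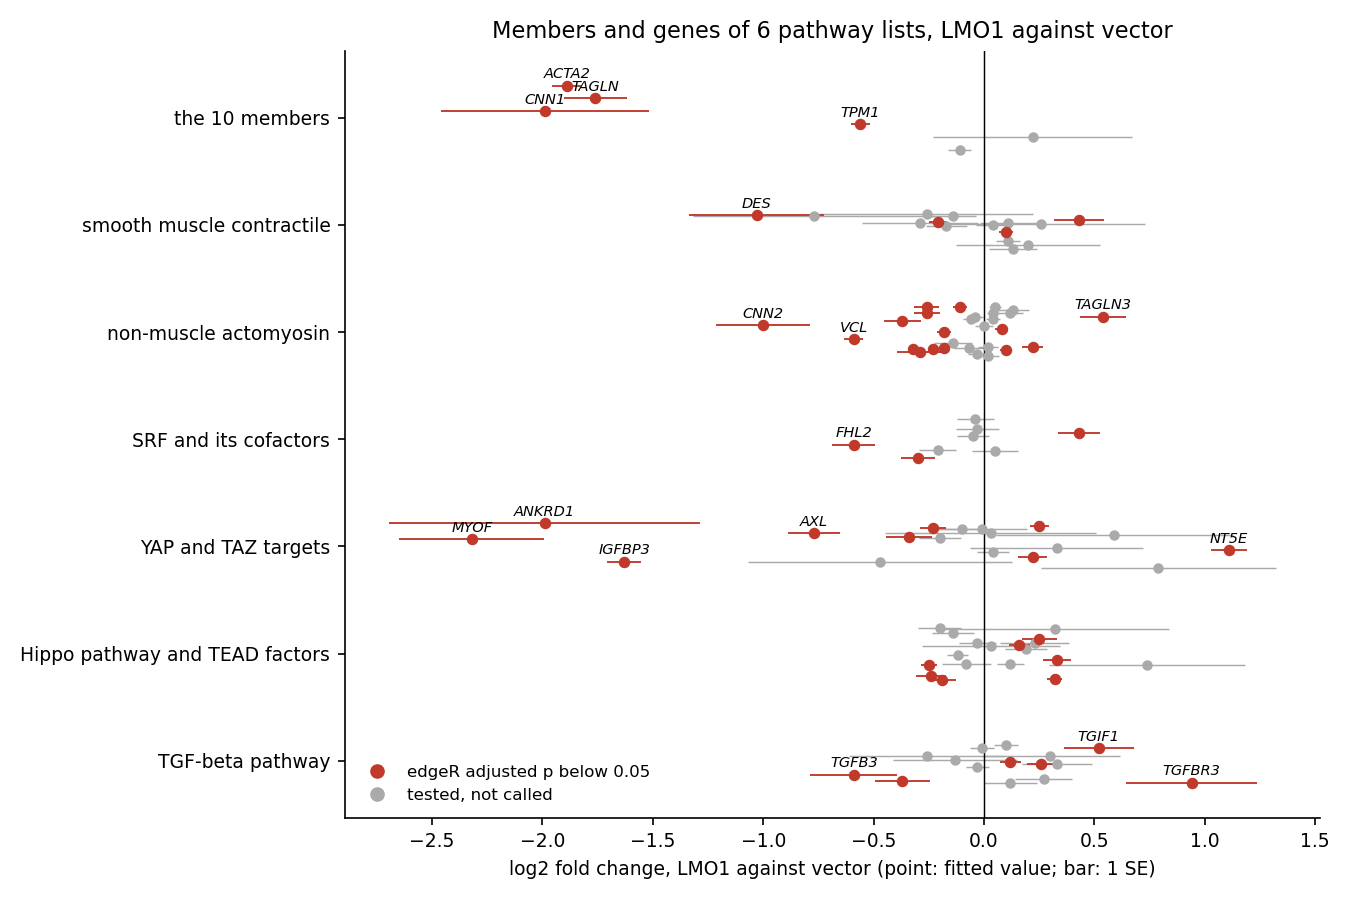
Log2 fold change of LMO1 against vector (points, with bars of 1 SE) for tested members and tested genes of 6 of the lists, 1 row per list. Red points have an edgeR adjusted p below 0.05, grey points do not, and called genes beyond 0.5 are named. The members in the top row were chosen with this contrast known. ACTA2, TAGLN and CNN1 lie below -1.7, while the contractile list around MYH11 and MYLK centres on 0.04.

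Of TGF-beta pathway genes, which can raise ACTA2, TAGLN and CTGF in mesenchymal cells, 2 of 15 tested were lower, 4 higher and 9 not called. Leaving out 1 replicate gave 0 lower without LMO1 replicate 2 and 1 without each of the others, and 1 to 3 higher. LTBP1, which stores the ligand in matrix, rose by 0.26 (SE 0.0669, edgeR adjusted p = 0.00243), a call lost without vector replicate 1 (adjusted p = 0.063). TGIF1, a repressor, rose by 0.52, the co-receptor TGFBR3 rose by 0.94 and the ligand TGFB3 fell by 0.59 on the log2 scale. Each of these 3 calls was lost under 3 alternatives (edgeR adjusted p = 0.00915, 0.0123 and 0.0177, up to 0.186, 0.277 and 0.206). The receptor TGFBR2 was at 1.20 to 1.89 CPM in the 4 modified libraries.

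Markers of cells that normally make ACTA2 were read in the same libraries, and bulk counts cannot tell fewer cells of a type from less RNA per cell. Over all genes tested, 15.9% were called higher and 15.1% lower, to be set beside the counts of each marker list. Of 11 smooth muscle and pericyte markers, 10 were tested, with 3 higher and 2 lower by edgeR. MYOCD was at 0 in all libraries, and MYH11, DES and LMOD1 were at most 4 CPM. The list's summed level was 9751 and 9853 CPM with LMO1, 7222 and 7277 CPM with vector, 11664 CPM in the parental library and 9027 CPM in Kelly. Most of it was RGS5, at 6835 to 11341 CPM, which rose with LMO1 (log2 0.46, edgeR adjusted p = 4.83e-26). MCAM (log2 0.46) and NOTCH3 (log2 0.79) were also called higher, and DES and KCNJ8 (log2 -1.03 and -0.14) lower. ABCC9, PDGFRB and CSPG4 were not called. Of 13 fibroblast and endothelial markers, 4 of 8 tested were higher and 2 lower, and the summed level was 246 and 251 CPM with LMO1, 215 and 223 CPM with vector, 310 CPM in the parental library and 102 CPM in Kelly. Among them FAP was at 0 in all 6 libraries, COL1A2 and PECAM1 were at most 0.0805 CPM, COL3A1 fell from 25.2 to 7.22 CPM (log2 -1.80, edgeR adjusted p = 8.31e-17) and DCN and LUM rose (log2 0.84 and 1.06). CDH5, called lower, had 4 and 7 counts with LMO1 and 24 and 40 with vector. VWF, called higher, had 30 and 39 counts with LMO1 and 7 and 17 with vector. Each passed the read filter through the group where it was high, so neither call is an independent sign. Skeletal and cardiac markers summed to 86.7 to 94.9 CPM in the modified libraries, most of it TTN, while MYF5 was at 0, and 1 of 3 tested was lower. Schwann cell markers summed to 5.03 to 7.25 CPM and blood cell markers to 7.02 to 9.34 CPM over the 6 libraries, with CDH19, HBB and CD3E at 0 and no gene called among 3 and 2 tested. The part of these cell types in the ACTA2 and TAGLN values was not tested beyond these levels.

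The parental library gives another reading of the controls, and its comparison shares the vector libraries with the contrast above. Whether the earlier results behind the choice of members included this library is not known, so its values are a description. It is a single library, so its differences carry no test. Against the vector mean, the log2 ratio of CPM with 1 added was -0.51 for ACTA2, -0.14 for TAGLN, -0.23 for TPM1 and 0.15 for CALD1. None of these 4 members, which were the ones at 5 CPM or more on either side, reached a 2-fold difference, whereas 8.79% of 11727 genes exceeded vector by 2-fold in the parental library and 2.58% fell short of it by 2-fold. Of the 4 members called lower with LMO1, the parental library lay nearer to vector for ACTA2, TAGLN and TPM1 and nearer to LMO1 for CNN1. Over all 2334 genes called lower, it lay nearer to LMO1 in 51.9%, and in the pathway lists in 13 of 32, among them DES, CNN2, MYOF, ANKRD1 and ACTB. VCL, FHL2, SRF and AXL were on the vector side. Among regulators reaching 5 CPM, MKL2 was 3-fold, TEAD1 2.20-fold and SCAI 2.06-fold higher in the parental library than in the vector mean. YAP1, under the 5 CPM used here, was at 3.01 against 0.505 CPM (5.97-fold). Kelly was also above the vector mean for these genes (71.2, 262, 65.8 and 3 CPM). The parental library was deeper than the vector pair (48663459 against 21946052 and 25070942 counts). Effects of the vector and of library preparation cannot be told apart in this comparison. On the TPM scale the median gene was 0.55 higher in the parental library than with vector (0.05 by CPM), so the scale shifts this comparison. Relative to the median gene, ACTA2 stood at a log2 value of -0.53 on the TPM scale and -0.56 on the CPM scale. TAGLN stood at -0.18 and -0.19.

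Kelly cells, whose LMO1 level was far above that of all BE2C libraries, differed from parental BE2C in both directions. ACTA2 was 14.8-fold lower in Kelly (exact 95% interval 13.1 to 16.8, counting error only) and TAGLN 9.02-fold lower (7.37 to 11.1). TPM2 was 14.8-fold higher (10.5 to 21.4), CNN1 10.7-fold higher (6.23 to 20.0), CYR61 8.82-fold higher (3.56 to 28.2) and CALD1 1.59-fold higher (1.54 to 1.65). TPM1 was 1.38-fold lower (1.34 to 1.43) and ACTG2, on 3 against 14 counts, 5.82-fold lower (1.62 to 31.6). CTGF had 18 counts in the parental library and 0 in Kelly, where the upper 95% bound of the ratio was 0.182. MYL9 had 0 counts in the parental library and 12 in Kelly, where the lower 95% bound of the ratio was 2.23. Of the 5 members at 5 CPM or more on either side, 1 (TPM2) exceeded a 2-fold increase and 2 (ACTA2 and TAGLN) a 2-fold decrease, where 15.3 and 13.4% of 12387 genes were. Neither line has a replicate here, and the 2 lines differ in much besides LMO1.

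The contractile list around them was split, with 3 of 11 genes at 5 CPM or more at least 2-fold higher in Kelly and 4 lower. SYNPO2 (7.49-fold) and SYNM (6-fold) were lower, while ITGA8 (6.99-fold), PPP1R14A (4.11-fold) and PPP1R12B (2.34-fold), named after their values were seen, were higher. Of 27 non-muscle genes, 9 were lower and 3 higher, and the lower ones included VCL (2.92-fold), ACTB (3.88-fold), FLNA (3.94-fold) and TAGLN2 (7.35-fold). FLNC, the muscle filamin, was 8.96-fold higher, at 479 CPM. Of the 12 YAP and TAZ targets at 5 CPM or more, 6 were at least 2-fold lower and 1 higher, with NT5E at 0.839 against 53.0 CPM, AXL at 0.168 against 20.7 CPM and IGFBP3 at 4.16 against 124 CPM. TEAD4 reached 20.1 CPM in Kelly against 1.13 CPM in parental cells, TEAD2 reached 6.58 against 1.70 CPM, and YAP1 stood at 3 and 3.01 CPM. SRF was 1.81-fold lower in Kelly.

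**Figure D5:**
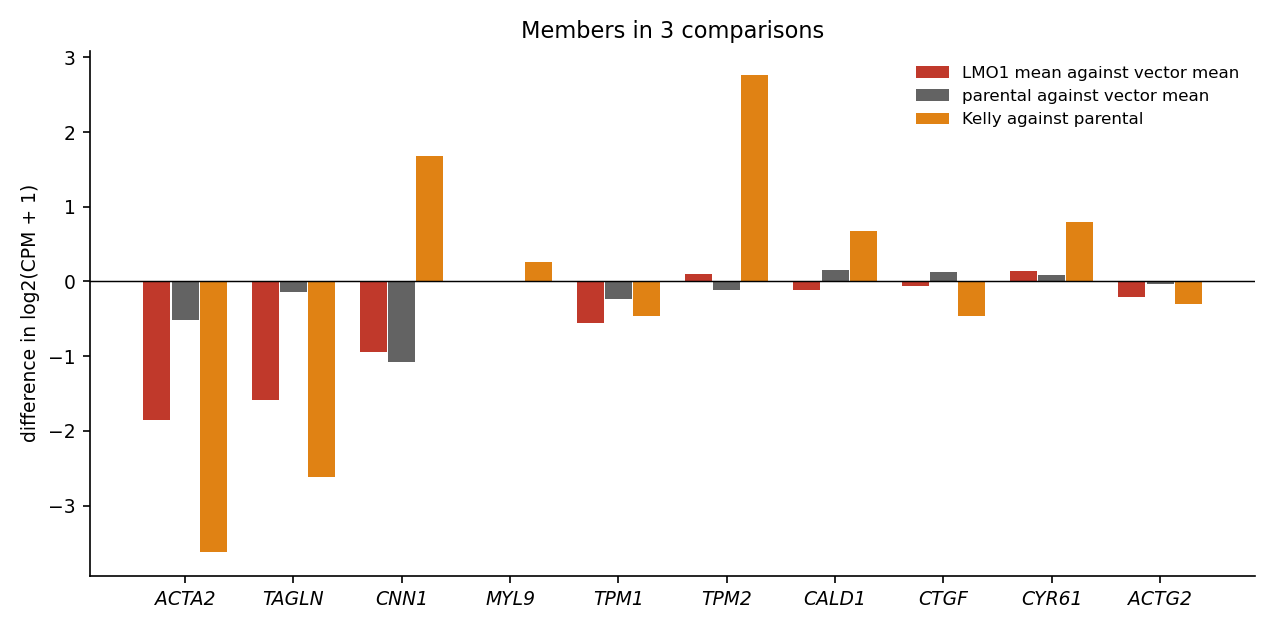
Bars give the difference in log2(CPM + 1) of each member between the LMO1 and vector means, between the parental library and the vector mean, and between Kelly and the parental library. The first 2 comparisons share the vector libraries and the last 2 share the parental library, and no error bars are drawn because 2 of the comparisons rest on a single library. ACTA2, TAGLN and TPM1 are negative in all 3, with Kelly values of -3.62 and -2.62 for the first 2, whereas CNN1 and TPM2 are higher in Kelly (1.68 and 2.77). ACTG2 bars are negative too but rest on 2 to 14 counts per library, with -0.03 for parental against vector.

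The genes with profiles most like those of ACTA2 and TAGLN were then found, by the Euclidean distance between centred log2(CPM + 1) profiles over the 6 libraries, among the 11691 genes averaging 5 CPM or more. Nearest to ACTA2 were LRRC17 (distance 0.85), BRINP1 (0.86), AKR1C3 (1.07), ENC1 (1.11) and TAGLN (1.15). LRRC17 was at 4.35 and 6.25 CPM with LMO1, 18.1 and 21.5 CPM with vector, 7.64 CPM in parental cells and 0.134 CPM in Kelly. Nearest to TAGLN were MIR503HG (0.79), CXCL12 (0.82), FN1 (0.83), SMAD6 (0.89) and PLXNA4 (0.97), and ACTA2 came at rank 16. FN1, the matrix protein fibronectin, was at 52.7 CPM in both LMO1 libraries, 122 and 128 CPM with vector, 114 CPM in parental cells and 34.6 CPM in Kelly. TPM1 was at rank 1884 for ACTA2 and 968 for TAGLN, and CALD1 at 8904 and 8684. These distances rest on 4 kinds of cells, weigh the Kelly library heavily and are a description. ACTA2 and TAGLN were both chosen for lower counts with LMO1, so their nearness to each other was in part fixed by that choice. A lower level of their neighbours with LMO1 follows in part from it too.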

How the data were processed

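Total RNA of 6 samples was made into stranded paired-end libraries, per the labels' protocols. The authors deposited raw whole-number read counts per gene symbol, and per the submitters' processing notes TopHat2 2.0.6, HTSeq and hg19 were used. The annotation and strand setting are not stated in the labels or file, so overlapping and antisense genes may share reads.

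The LMO1 against vector contrast was fitted in edgeR 4.0.16 (R 4.3.3) with TMM scaling, filterByExpr (9890 of 25370 rows removed), a quasi-likelihood F test and Benjamini-Hochberg adjustment over 15480 genes. The test was checked on simulated counts. Alternatives used limma 3.58.1 and DESeq2 1.42.0. Replicates differed beyond counting error (chi-square over its degrees of freedom 2.84 and 2.7) and were counted separately. Single-library comparisons used log2 ratios of CPM with 1 added, for genes reaching 5 CPM on either side, and exact 95% intervals. TPM used exon lengths of GENCODE for 23581 rows.

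The members and lists were chosen with earlier results of these data known. Genes named are the members, SRF, its cofactors, YAP1, WWTR1 and TEAD genes, up to 4 called genes per list with the lowest adjusted p, up to 3 per list past 2-fold in single-library comparisons, and 5 profile neighbours. Others were chosen after their values were seen. The genes of 1 list and 1 further gene are not reported here.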

Additional observations from a re-analysis of the deposited data

How the results depend on the processing

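Values of the members with LMO1 are a description under each alternative too, and CNN1 was not tested with a filter of 5 CPM in 2 libraries. The log2 fold change ran from -1.94 to -1.84 for ACTA2, -1.83 to -1.68 for TAGLN, -0.60 to -0.52 for TPM1 and -2.43 to -1.69 for CNN1. With the DESeq2 Wald test, 1539 genes were higher and 1431 lower in all, and 13 genes of the pathway lists were higher. Leaving out 1 replicate gave 13 to 19 pathway genes higher and 21 to 30 lower, with 13 higher without LMO1 replicate 1 or vector replicate 2 and 21 lower without LMO1 replicate 2. With a pseudocount of 5 CPM, 190 genes were 2-fold or more below vector in parental cells. Replicate numbers do not pair the libraries (correlation of deviations -0.0214), and with the replicate number as a block 2473 genes were higher and 2374 lower. Of 472 values of 40 named genes under alternatives, 450 kept direction and side of the threshold, 20 lost the call, 2 gained it and 0 reversed. Total-count scaling moved the median of all genes by under 0.1 but gave 2735 genes higher and 1853 lower, against 2463 and 2334 with TMM. Low counts limit what can be read from CTGF, CYR61 and ACTG2, which stayed under 1 CPM. MYL9 had 0 counts in every BE2C library and 12 in Kelly.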
